A study of Mus musculus with 36 samples.

Results

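The hexosamine pathway of the mouse was followed here through 9 genes, Gnpda1, Gnpda2, Gfpt1, Gfpt2, Gnpnat1, Pgm3, Uap1, Nagk and Ogt, out of 22761 genes listed, in 36 RNA-seq libraries of kidney progenitor cells. The genes were taken by symbol. Gnpda1 was chosen by its measured values, because it stood among the genes with the largest differences between ES-derived and E11.5 ex-fetu cells of every cell type, and its level in ES-derived against ex-fetu cells is therefore described and not tested. The other 8 genes were listed for their place in the pathway.

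The pathway turns a branch of glucose metabolism into UDP-GlcNAc, the donor sugar of protein glycosylation. GFAT, encoded by Gfpt1 and Gfpt2, adds the amino group of glutamine to fructose 6-phosphate and is the rate-limiting step, and the glucosamine 6-phosphate deaminases encoded by Gnpda1 and Gnpda2 run the opposite way. Gnpnat1, Pgm3 and Uap1 encode the acetyltransferase, the mutase and the pyrophosphorylase that carry glucosamine 6-phosphate on to UDP-GlcNAc. Nagk encodes the kinase that returns salvaged N-acetylglucosamine to the pathway, and Ogt the transferase that puts O-GlcNAc on nuclear and cytoplasmic proteins. In the embryonic kidney UDP-GlcNAc also feeds the heparan sulphate chains on which ureteric bud branching depends.

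There were 9 groups with 4 libraries each. The ex-fetu groups were ureteric bud (UB), stromal progenitors (SP) and nephron progenitors (NP) sorted from kidneys of CD1 mice at E11.5 and at E12.5. The ES-derived groups were iSP and iNP, differentiated from E14 mESC, and engineered ureteric bud (eUB, written iUB in the sample titles). eUB was differentiated from an mCherry reporter line of mESC, named Sox9-mCherry in the sorting and sequencing methods and Sox8-mCherry elsewhere in the paper. An ex-fetu sample was a pool of kidneys from the whole litter of a mouse, an ES-derived sample a pool of embryoid bodies from a differentiation batch, and the cells were sorted by surface markers (RET and EpCAM for UB, EpCAM and mCherry for eUB, ITGA8 and PDGFRA for NP and SP, after cells positive for the endothelial marker CD31 or for EpCAM and RET had been gated out). No agent, deletion or transgene was compared within a group. Strain and cell line cannot be told apart from the ES-derived or ex-fetu source. eUB also differs from iSP and iNP in parent line and protocol. These cannot be told apart from cell type where eUB, or its difference from ex-fetu cells, is compared with that of iSP or iNP. In the labels the titles and the cell source of the UB samples give opposite ages. The titles were used, and the column headers of the deposited values give the same ages as the titles. Which libraries stand as E11.5 UB and which as E12.5 UB rests on them in every comparison with either group.

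Libraries held 13.0 to 52.5 M reads on genes. Values are normalised CPM, and a level given for a gene is on that scale. All 9 genes were measured in every library, Gnpda1 on at least 35 reads, Nagk on at least 54 and Ogt on at least 1383. Summed over its list, each labelled cell type held its own markers. The summed level of 8 UB markers was 1894 to 3587 in the UB groups and 35.7 to 302 in the other groups. The sum of 7 NP markers ran from 489 to 746 in iNP and from 982 to 1776 in ex-fetu NP. The sum of 6 SP markers was 1869 to 3262 in ex-fetu SP and 2394 to 2619 in iSP. Foxd1, which defines the stromal lineage, went against the label in iSP, where it lay at 11.4 to 19.2, below ex-fetu SP at 265 to 758 and also below ex-fetu NP at 44.3 to 92.9. Other single markers went against their labels too. Among them, Cited1 of the NP list lay at 1.66 to 4.26 in iNP and 12.7 to 23.3 in eUB. Meox1 of the NP list lay at 112 to 122 in iNP and 157 to 180 in iSP. Tcf21 of the SP list lay at 15.5 to 22.2 in iSP and 32.9 to 43.2 in iNP. Wnt11 of the UB list lay at 55.5 to 87.4 in E11.5 UB and 74.5 to 161 in E11.5 SP. In the library of E12.5 UB replicate 1, which stood apart from the rest of its group, the 7 NP markers summed to 313 against 28.7 to 39.5 in the other 3 libraries, the 5 endothelial markers to 87.4 against 2.98 to 6.04, and the 3 pluripotency markers to 11.3 against 0.0473 to 0.145. Its 6 SP markers summed to 469 against 180 to 187, and its 8 UB markers to 1894 against 2886 to 3049. The differences of the members that rest on E12.5 UB are followed by the value without that library, except those in which a pseudogene was added to Gnpda1.

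The sequences just before the start sites of 5 of the genes are shown because these genes moved together across cell types: Gnpda2, Pgm3 and Nagk were higher, and Gfpt2 and Uap1 lower, in the ES-derived cells of all 3 types than in their E11.5 counterparts. The sequences are RefSeq promoter windows of the build GRCm38.p6, which is the C57BL/6J reference and not the genome of these cells, read 5′ to 3′ on the strand of the gene, without bases that the annotation places in an exon. Capitals mark matches on either strand to the motif letters searched, which were CCACG and TGACGTGG (both bound by XBP1 or ATF6), CACGTG (the E-box), TGATG (the core of the CEBP-ATF element) and GGGCGG (the Sp1 box).
Gnpda2, chr5:69592341-69592554, minus strand: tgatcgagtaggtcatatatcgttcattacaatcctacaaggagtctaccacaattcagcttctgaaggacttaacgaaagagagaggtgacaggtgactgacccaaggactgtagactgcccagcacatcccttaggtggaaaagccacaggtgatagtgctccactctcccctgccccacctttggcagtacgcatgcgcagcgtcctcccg
Pgm3, chr9:86571843-86571990, minus strand: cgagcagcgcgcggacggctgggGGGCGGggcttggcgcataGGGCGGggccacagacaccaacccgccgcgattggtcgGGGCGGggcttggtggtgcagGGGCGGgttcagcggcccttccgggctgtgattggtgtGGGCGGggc
Nagk, chr6:83794750-83794981, plus strand: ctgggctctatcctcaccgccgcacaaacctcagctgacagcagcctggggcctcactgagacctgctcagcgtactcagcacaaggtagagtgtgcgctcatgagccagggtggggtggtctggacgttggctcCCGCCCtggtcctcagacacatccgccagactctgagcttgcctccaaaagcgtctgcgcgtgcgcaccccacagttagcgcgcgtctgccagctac
Gfpt2, chr11:49793905-49794154, plus strand: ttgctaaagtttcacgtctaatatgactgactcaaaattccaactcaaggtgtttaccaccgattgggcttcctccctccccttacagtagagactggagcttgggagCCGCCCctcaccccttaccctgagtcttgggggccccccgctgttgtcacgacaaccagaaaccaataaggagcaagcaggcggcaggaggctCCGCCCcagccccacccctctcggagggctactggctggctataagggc
Uap1, chr1:170174965-170175179, minus strand: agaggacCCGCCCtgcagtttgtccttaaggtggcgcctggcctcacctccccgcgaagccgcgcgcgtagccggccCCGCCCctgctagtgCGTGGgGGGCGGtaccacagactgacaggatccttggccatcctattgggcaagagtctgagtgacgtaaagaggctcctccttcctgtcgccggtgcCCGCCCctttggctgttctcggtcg

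Gnpda2, with the AT-richest of these windows at 51.9% GC, held none of the motifs, while Pgm3 held 5 Sp1 boxes in 148 bases at 75.7% GC. Nagk held 1 Sp1 box, Gfpt2 held 2, and Uap1 held 4 Sp1 boxes and 1 CCACG. In 250 bases before the start, the Sp1 box stood in 32.74% of 32851 RefSeq promoters, CCACG in 28.34%, TGATG in 34.47%, the E-box in 6.02% and TGACGTGG in 0.56%, so the boxes shown are common letters. The 3 genes that were higher and the 2 that were lower shared no motif that set them apart. CCACG, read on the other strand, lies within TGACGTGG, and CACGTG shares letters with both. A match describes letters and not a binding site.

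Gnpda1 was expressed at the highest level in the ES-derived cells and at a low level in every ex-fetu group. In eUB its level was 51.9, 48.8, 48.8 and 42.5 in the 4 libraries, in iSP 41.0, 36.2, 38.7 and 36.6, and in iNP 31.6, 28.5, 33.5 and 31.2. No ex-fetu library reached these values. The 4 E11.5 UB libraries gave 4.71, 4.74, 5.48 and 4.41, the E11.5 SP libraries 3.20, 3.01, 3.89 and 3.33, and the E11.5 NP libraries 2.42, 1.51, 2.004 and 2.02. The E12.5 levels were close to these in SP, at 1.90 to 4.31, and in NP, at 2.12 to 2.97. In E12.5 UB the levels were 13.4, 6.34, 7.86 and 7.15, the highest being that of replicate 1, the library with NP, endothelial and pluripotency markers. In bulk samples fewer cells that express a gene and less RNA per cell cannot be told apart.

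The ratio of group means was 9.93 for eUB against E11.5 UB, 11.3 for iSP against E11.5 SP and 15.7 for iNP against E11.5 NP. Against E12.5 it was 5.52 for eUB (on the log2 scale described next the difference was 2.39, and 2.59 without E12.5 UB replicate 1), 11.9 for iSP and 11.9 for iNP. On the log2(normalised CPM + 1) scale, on which all differences below are given, the difference from E11.5 was 3.07 (95% CI 2.85 to 3.29) in UB, 3.17 (2.94 to 3.39) in SP and 3.44 (3.16 to 3.71) in NP. Of 13956 genes tested in UB, 46 had a larger increase, and the number was 41 of 13916 in SP and 53 of 14064 in NP. These values chose the gene and carry no test.

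**Figure D1:**
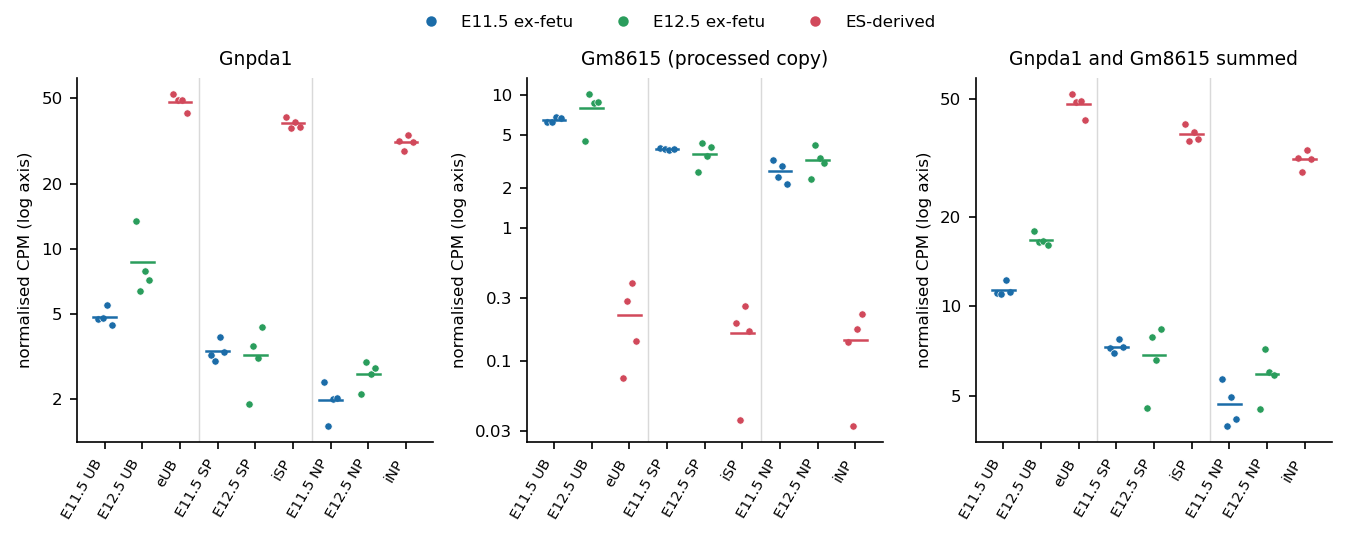
Normalised CPM (log axes) of Gnpda1, of its processed copy Gm8615 and of their sum in each of the 36 libraries, by group; points are libraries and horizontal lines group means. Gnpda1 lay at 28.5 to 51.9 in the ES-derived libraries and at 1.51 to 13.4 in the ex-fetu libraries, Gm8615 lay the other way round at 0.0328 to 0.386 and 2.15 to 10.2, and the sum kept the ES-derived libraries above the rest.

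The count of Gnpda1 is uncertain because the annotation holds a near-identical copy. Gm8615, a transcribed processed pseudogene on chromosome 5 (minus strand), shared 753 aligned bases at 99.1% identity with the transcript of Gnpda1. Gm8615 was listed at 2.15 to 10.2 in the 24 ex-fetu libraries and at 0.0328 to 0.386 in the 12 ES-derived libraries, where it rested on 1 to 10 reads. The 2 sources did not overlap, and the direction was opposite to that of Gnpda1. How the counting divided reads between the 2 loci was not tested.

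Adding the reads of Gm8615 to Gnpda1 lowered the difference but left the groups apart. The sum was 28.5 to 52.0 in the ES-derived libraries and 3.96 to 17.97 in the ex-fetu libraries. On the log2 scale the difference from E11.5 became 1.99 in UB, 2.24 in SP and 2.51 in NP, and that from E12.5 became 1.47, 2.35 and 2.24. In E12.5 UB replicate 1, Gm8615 was listed at 4.54 against 8.73 to 10.2 in the other 3 libraries, so the sums of the 4 libraries, 17.97, 16.5, 16.6 and 16.1, lay closer together than the levels of Gnpda1 alone.

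The E11.5 and ES-derived libraries are those whose values chose Gnpda1, so its differences between the ages, between E11.5 cell types and between ES-derived cell types are also given without a test. Its mean level was 4.84 in E11.5 UB and 8.69 in E12.5 UB, a difference of 0.68, and the 2 groups did not overlap. The difference was 0.47 without E12.5 UB replicate 1 and 0.52 with Gm8615 added. In SP and NP the differences between ages were -0.08 and 0.28, and with a library left out they ranged from -0.20 to 0.09 and from 0.20 to 0.35. At E11.5 UB exceeded SP by 0.42 and NP by 0.97, and NP and SP differed by -0.55.

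Between the E12.5 cell types, whose libraries did not choose the gene, Gnpda1 was higher in UB than in NP by 1.37 (limma, adjusted p = 0.001; 1.16 without UB replicate 1) and than in SP by 1.19 (adjusted p = 0.0044; 0.98 without UB replicate 1). NP and SP differed by -0.19 (95% CI -0.62 to 0.25). Both calls held with Gm8615 added. Among the ES-derived cells the differences, without a test, were 0.60 for eUB against iNP, 0.32 for eUB against iSP and -0.28 for iNP against iSP. In the order of the 9 group means, eUB, iSP, iNP, E12.5 UB and E11.5 UB each lay apart from the next group, whereas E11.5 SP, E12.5 SP, E12.5 NP and E11.5 NP overlapped with their neighbours.

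Gnpda2, the second glucosamine 6-phosphate deaminase, was higher in the ES-derived cells too, but by less. Its level was 15.4, 14.9, 14.9 and 15.2 in eUB, 10.8, 8.99, 9.35 and 11.2 in iSP, and 8.90, 7.61, 9.11 and 10.2 in iNP. At E11.5 it was 8.20, 8.32, 8.27 and 7.40 in UB, 3.57, 4.16, 5.09 and 5.93 in SP, and 4.40, 6.71, 7.46 and 7.01 in NP. Within each cell type no ES-derived library overlapped with E11.5 or E12.5. For log2 differences, here and below, ± gives the standard error of the limma fit. The differences from E11.5 were 0.83 ± 0.08 in UB (adjusted p = 1.8e-05), 0.97 ± 0.15 in SP (adjusted p = 0.00027) and 0.44 ± 0.16 in NP (adjusted p = 0.033). The NP call passed the threshold narrowly, and missed it without the filter (adjusted p = 0.056) and without E11.5 NP replicate 1 or 2 or iNP replicate 1, 3 or 4 (adjusted p = 0.053 to 0.09).

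Against E12.5 the differences were 0.56 ± 0.10 in UB (adjusted p = 0.0021; 0.57 without E12.5 UB replicate 1), 0.93 ± 0.13 in SP (adjusted p = 0.00024) and 0.39 ± 0.14 in NP (adjusted p = 0.042, and 0.051 by edgeR, 0.076 without the filter and 0.062 with a replicate block, and 0.095 to 0.13 without E12.5 NP replicate 3 or 4 or iNP replicate 1, 3 or 4). Between E11.5 and E12.5 it did not pass the test in any cell type. Between cell types, eUB exceeded iSP by 0.54 (adjusted p = 0.00039) and iNP by 0.70 (adjusted p = 0.00045), and ex-fetu UB exceeded SP by 0.69 at E11.5 (adjusted p = 0.0024) and 0.92 at E12.5 (adjusted p = 0.00073; 0.91 without UB replicate 1). UB exceeded NP by 0.53 at E12.5 (adjusted p = 0.011; 0.52 without UB replicate 1), whereas at E11.5 the 2 groups overlapped (0.31, adjusted p = 0.077; 0.049 without E11.5 NP replicate 3). The 3′ end of Gnpda2 shares 1022 exonic bases with Guf1 on the opposite strand, and although the library kit was strand-specific, the sources used here do not say whether reads were counted by strand. Guf1 lay at 17.3 to 33.0 in the E11.5 libraries and at 21.2 to 51.8 in the ES-derived libraries.

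Per kilobase of exon, Gnpda1 made up 81.6 to 86.8% of the 2 deaminases in the 12 ES-derived libraries and 26.4 to 67.6% in the ex-fetu libraries. The 67.6% was that of E12.5 UB replicate 1, and the next highest ex-fetu library was E11.5 SP replicate 1 at 58.8%. The lowest shares were in E11.5 NP (33.6% ± 8.94, SD, n = 4) and E12.5 NP (38.8% ± 3.87). These shares follow from the values that chose Gnpda1.

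The entry to the pathway is the step of the 2 GFAT genes. Gfpt2 had its highest levels at E11.5, with 72.0, 70.2, 74.9 and 75.6 in UB, 77.3, 81.9, 93.2 and 92.8 in SP, and 88.0, 75.0, 82.3 and 55.9 in NP. At E12.5 its levels were 36.2, 45.1, 49.3 and 45.4 in UB, 32.9, 49.6, 54.9 and 54.8 in SP, and 30.3, 19.0, 21.0 and 18.9 in NP. Every E11.5 library lay above every E12.5 library. In the ES-derived cells Gfpt2 lay near the E12.5 levels, at 38.2 to 43.9 in eUB, 33.6 to 36.9 in iSP and 28.1 to 34.0 in iNP.

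Gfpt2 was the only member called lower at E12.5 than at E11.5, and it was so in all 3 cell types. It fell by 0.73 ± 0.09 in UB (adjusted p = 0.001; a difference of -0.64 without E12.5 UB replicate 1), 0.85 ± 0.17 in SP (adjusted p = 0.017) and 1.72 ± 0.19 in NP (adjusted p = 0.0022). The SP call was lost without E11.5 SP replicate 3 (adjusted p = 0.065). Gfpt2 was also lower in the ES-derived cells than at E11.5, by -0.80 in UB (adjusted p = 8.3e-06), -1.27 in SP (adjusted p = 1.8e-06) and -1.20 in NP (adjusted p = 5.8e-05). Set against E12.5, the calls were not the same in each type, and whether the difference itself differed between types was not tested. eUB did not differ detectably from E12.5 UB (-0.07, 95% CI -0.31 to 0.17; adjusted p = 0.63; -0.16 and adjusted p = 0.14 without E12.5 UB replicate 1), iSP was lower by -0.42 (adjusted p = 0.041) and iNP higher by 0.52 (adjusted p = 0.031).

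Neither of the last 2 calls was firm. The iSP call missed the threshold without the filter (adjusted p = 0.051) and when any library other than E12.5 SP replicate 1 was left out (adjusted p = 0.066 to 0.11). The iNP call missed it by edgeR (adjusted p = 0.062) and without E12.5 NP replicate 2, 3 or 4 or iNP replicate 1, 3 or 4 (adjusted p = 0.06 to 0.094). At E12.5 Gfpt2 was lower in NP than in SP by -1.07 (adjusted p = 0.0033) and higher in UB than in NP by 0.97 (adjusted p = 0.002; 1.06 without UB replicate 1), whereas at E11.5 UB and NP differed by -0.02. UB lay below SP at E11.5 by -0.23 (adjusted p = 0.045), a call that was lost without the filter (adjusted p = 0.051), with the replicate block (0.068), in the fit of all 36 libraries (0.18) and without any of 6 libraries (0.074 to 0.13).

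Gfpt1, the more widely expressed GFAT gene, went the other way from Gfpt2 in UB, where it rose in steps: its level was 98.7, 85.9, 92.5 and 97.8 at E11.5, 108, 117, 124 and 122 at E12.5, and 151, 145, 140 and 138 in eUB, with no overlap between the 3 groups. The differences were 0.33 ± 0.07 between the ages (adjusted p = 0.0085; 0.37 without E12.5 UB replicate 1), 0.61 ± 0.07 between eUB and E11.5 (adjusted p = 4.3e-05) and 0.29 ± 0.07 between eUB and E12.5 (adjusted p = 0.011; 0.24 without E12.5 UB replicate 1). In a fit of all 36 libraries the first and the last of these were not called (adjusted p = 0.24 and 0.21). In SP the level varied within the ex-fetu groups, from 118 to 221 at E11.5 and from 122 to 215 at E12.5, and iSP, at 132 to 149, lay inside both ranges. The iSP difference was -0.21 from E11.5 and -0.27 from E12.5 (adjusted p = 0.35 and 0.16). With a library left out the former ranged from -0.37 to -0.07, and without E12.5 SP replicate 1 the latter was called (-0.42, adjusted p = 0.0022). In NP the ranges overlapped as well, and iNP replicate 2, at 62.4, stood below the other 3 iNP libraries, at 110.8 to 115.3. The iNP difference was -0.23 from E11.5 and -0.04 from E12.5 (adjusted p = 0.3 and 0.9), and without iNP replicate 2 these were -0.024 and 0.17 (adjusted p = 0.8 and 0.4). Between the ages the differences were 0.05 in SP and -0.20 in NP (adjusted p = 0.93 and 0.47). Ex-fetu UB lay below SP by -0.78 at E11.5 (adjusted p = 0.0059) and by -0.51 at E12.5 (adjusted p = 0.027). The E12.5 call was lost without any of 7 of the 8 libraries (adjusted p = 0.054 to 0.074; -0.47 and 0.058 without UB replicate 1). NP lay below SP by -0.74 at E12.5 (adjusted p = 0.018), and by -0.49 at E11.5, which did not pass the test (adjusted p = 0.075) but did by edgeR (0.048), in the fit of all 36 libraries (0.029), under the replicate block (0.031) and without E11.5 SP replicate 1 or 2 (0.023 and 0.045).

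Per kilobase of exon, the share of Gfpt2 in the sum of Gfpt1 and Gfpt2 was 58.5% ± 1.26 (SD, n = 4) in UB, 49.0% ± 5.68 in SP and 53.8% ± 5.69 in NP at E11.5. At E12.5 it was 40.1% ± 1.73 in UB, 33.7% ± 3.48 in SP and 28.8% ± 8.90 in NP, and in the ES-derived cells 34.4% ± 2.22 in eUB, 31.2% ± 0.464 in iSP and 37.1% ± 5.15 in iNP. Every library of the E12.5 and ES-derived groups lay below every E11.5 library of its cell type. Two-sided exact permutation tests of the difference in mean share gave p = 0.029, the smallest that 4 against 4 libraries allow, for each of these 6 comparisons (adjusted p = 0.037 over 9 tests). The share was also lower in eUB than in E12.5 UB by -5.75 percentage points (exact permutation p = 0.029, adjusted p = 0.037). Without replicate 1 the E12.5 UB shares were 40.1 to 41.7%, against 31.4 to 36.1% in eUB and 56.8 to 59.5% in E11.5 UB. The remaining 2 comparisons overlapped, with -2.48 points in SP (exact permutation p = 0.26) and 8.35 points in NP (exact permutation p = 0.20).

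**Figure D2:**
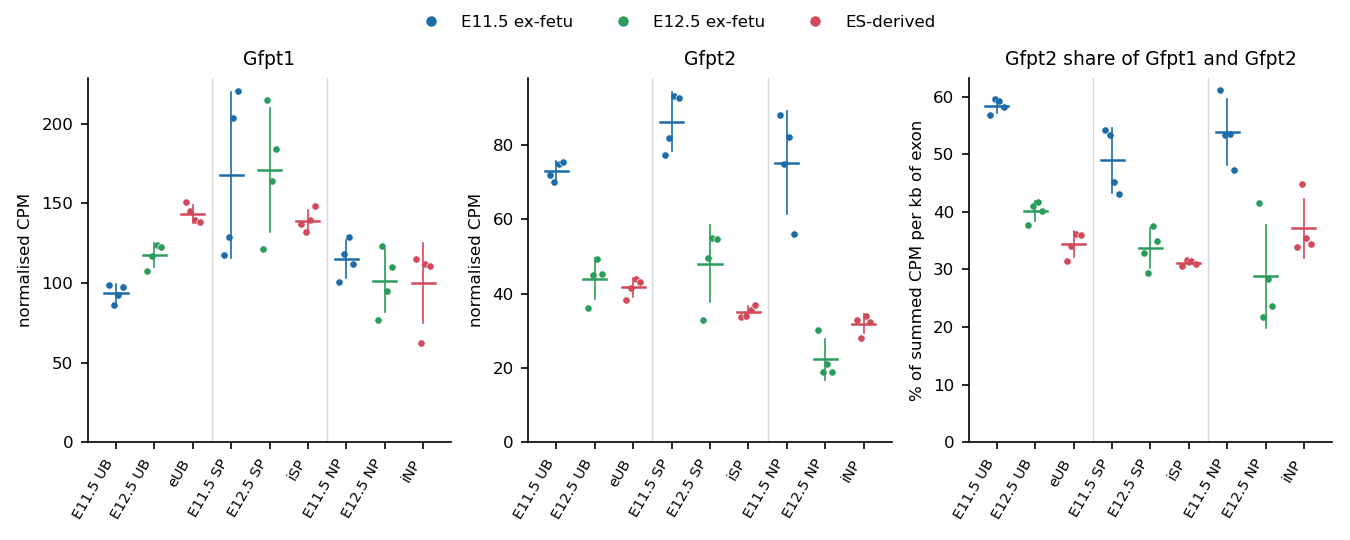
Normalised CPM of Gfpt1 and Gfpt2 and the share of Gfpt2 in their sum per kilobase of exon (%), in each of the 36 libraries by group; points are libraries, horizontal lines means and vertical lines ± 1 SD (n = 4). Gfpt2 lay at 55.9 to 93.2 in the E11.5 libraries and at 18.9 to 54.9 in the E12.5 libraries, and its share fell from 43.1 to 61.2% at E11.5 to 21.7 to 41.7% at E12.5.

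Of the enzymes that carry glucosamine 6-phosphate forward, Pgm3 was higher and Uap1 lower in the ES-derived cells than at E11.5, and Gnpnat1 was lower in eUB, higher in iNP and without a detectable difference in iSP from E11.5. Pgm3, the N-acetylglucosamine phosphate mutase, measured 43.5, 34.9, 33.8 and 38.7 in eUB, 29.2, 26.2, 27.4 and 29.2 in iSP and 34.5, 34.2, 31.8 and 33.8 in iNP, against 17.1 to 27.9 in the 24 ex-fetu libraries. Only iSP overlapped with its E11.5 group, whose 4 libraries gave 18.7, 19.0, 23.3 and 26.7. The differences from E11.5 were 0.68 ± 0.10 in UB (adjusted p = 0.00018), 0.36 ± 0.12 in SP (adjusted p = 0.027) and 0.58 ± 0.10 in NP (adjusted p = 0.00048), and from E12.5 they were 0.57, 0.40 and 0.55 (adjusted p = 0.0026, 0.016 and 0.012; 0.57 and 0.0035 in UB without E12.5 UB replicate 1). The SP call against E11.5 missed the threshold without E11.5 SP replicate 1 or 2 or iSP replicate 1, 3 or 4 (adjusted p = 0.053 to 0.068). Between the ages Pgm3 did not pass the test in any cell type, with differences of 0.11, -0.04 and 0.03 in UB, SP and NP (0.11 in UB without E12.5 UB replicate 1).

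Pgm3 shares 1270 exonic bases with Dop1a, listed as Dopey1, on the opposite strand. Dopey1 was at 6.23 to 34.6 in the ES-derived libraries and 16.4 to 35.6 in the ex-fetu libraries.

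Uap1, the UDP-GlcNAc pyrophosphorylase, gave 47.9, 47.6, 43.2 and 48.0 in eUB, 42.4, 37.5, 38.5 and 40.2 in iSP and 48.5, 46.1, 46.2 and 47.1 in iNP. All 24 ex-fetu libraries lay above all 12 ES-derived libraries, at 49.7 to 95.2. The difference from E11.5 was -0.42 ± 0.08 in UB (adjusted p = 0.0015), -0.88 ± 0.14 in SP (adjusted p = 0.00035) and -0.41 ± 0.08 in NP (adjusted p = 0.0016). From E12.5 it was -0.36 in UB (adjusted p = 0.011; -0.42 without E12.5 UB replicate 1), -0.86 in SP (adjusted p = 1.9e-05) and -0.23 in NP, which did not pass the test (adjusted p = 0.12, and 0.049 in the fit of all 36 libraries) although the ranges did not overlap. Uap1 differed between the ages by -0.06, -0.02 and -0.17 in UB, SP and NP, and none of these passed the test (-0.0037 in UB without E12.5 UB replicate 1).

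Gnpnat1, the glucosamine 6-phosphate acetyltransferase, was lower in eUB and higher in iNP than at E11.5. In eUB its level was 10.4, 10.7, 8.42 and 9.38 against 13.5, 14.0, 15.8 and 13.3 in E11.5 UB, and in iNP it was 15.7, 15.5, 14.3 and 15.2 against 10.4, 11.1, 11.5 and 12.4 in E11.5 NP. Neither pair of groups overlapped. The differences were -0.50 ± 0.10 (adjusted p = 0.0021) and 0.39 ± 0.10 (adjusted p = 0.0062, and 0.053 in a fit of all 36 libraries), while in SP the difference was -0.04 (95% CI -0.49 to 0.40). Against E12.5 Gnpnat1 was lower in eUB by -0.76 (adjusted p = 0.002; -0.86 without E12.5 UB replicate 1) and in iSP by -0.48 (adjusted p = 0.035), and iNP differed by 0.14 (adjusted p = 0.57). Between the ages it did not pass in UB unless E12.5 UB replicate 1 was left out (0.36, adjusted p = 0.011). The iSP call was lost without the filter (adjusted p = 0.05) and without E12.5 SP replicate 2 or 4 or iSP replicate 1, 2 or 3 (adjusted p = 0.072 to 0.083).

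The count of Gnpnat1 is uncertain on 3 grounds. It shares 3878 exonic bases with Styx on the opposite strand, 552 bases at 99.8% identity with Gm14698, and 556 bases at 98.6% identity with the processed pseudogene AC132351.1, for which no value was analysed here. Styx was at 0.656 to 4.27 and Gm14698 at 0.0853 to 0.747 over all libraries, both below Gnpnat1, at 7.97 to 23.1.

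Nagk, the salvage kinase, showed the largest increase over E11.5 after Gnpda1 among the members in SP and NP, and it rose with age in UB. In NP its level was 3.08, 2.45, 2.56 and 1.85 at E11.5, 2.80, 4.86, 5.39 and 4.12 at E12.5, and 14.0, 21.0, 15.2 and 12.6 in iNP. The iNP libraries lay above all 24 ex-fetu libraries, whose highest value was 11.3. The iNP difference was 2.25 ± 0.17 from E11.5 (adjusted p = 3.7e-06) and 1.66 ± 0.21 from E12.5 (adjusted p = 0.00015), and without iNP replicate 2, the highest library, it was 2.11 and 1.52. In SP, where E11.5 gave 4.97, 5.25, 6.99 and 7.07 and iSP 15.1, 15.4, 16.6 and 13.3, the difference was 1.198 ± 0.13 (adjusted p = 3.8e-05), and from E12.5 it was 0.59 (adjusted p = 0.0054).

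In UB Nagk gave 5.36, 6.31, 6.46 and 4.80 at E11.5, 8.02, 10.7, 10.2 and 10.1 at E12.5, and 11.9, 11.6, 8.63 and 13.2 in eUB. eUB exceeded E11.5 by 0.87 ± 0.14 (adjusted p = 0.0005), beside 0.83 ± 0.08 for Gnpda2, and overlapped with E12.5 (0.19, adjusted p = 0.33; 0.10 without E12.5 UB replicate 1). Between the ages the rise was 0.68 ± 0.13 in UB (adjusted p = 0.0059; 0.76 without E12.5 UB replicate 1). The differences of 0.61 in SP and 0.59 in NP did not pass the test (adjusted p = 0.067 and 0.091), though both did in a fit of all 36 libraries (adjusted p = 0.0088 and 0.022) and without replicate 1 of the E12.5 group (adjusted p = 0.015 in each).

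Ex-fetu NP held the least Nagk of the 3 cell types. At E11.5 it lay below SP by -1.02 (adjusted p = 0.00066) and UB exceeded it by 0.95 (adjusted p = 7.7e-05), and at E12.5 the differences were -1.04 (adjusted p = 0.003) and 1.05 (adjusted p = 0.0021; 1.13 without UB replicate 1). In the ES-derived cells iNP and iSP differed by 0.03 (adjusted p = 0.9), and eUB lay below iSP by -0.40 (adjusted p = 0.021, and 0.05 and 0.062 without iSP replicate 2 or 3). eUB and iNP overlapped (-0.43, adjusted p = 0.07; 0.043 under upper-quartile scaling and 0.031 in the fit of all 36 libraries).

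Ogt, the O-GlcNAc transferase, varied between replicates. Its level was 103, 138, 192 and 170 in eUB against 130, 119, 133 and 122 in E11.5 UB, 110, 168, 148 and 143 in iSP against 139, 150, 90.0 and 61.8 in E11.5 SP, and 105, 73.6, 131 and 128 in iNP against 149, 122, 109 and 135 in E11.5 NP. All 3 pairs of groups overlapped and none passed the test, although without eUB replicate 1, at 103, the eUB difference did (0.39, adjusted p = 0.0022, in place of 0.22, adjusted p = 0.29). At E12.5 it measured 135, 213, 180 and 166 in UB, 140, 143, 197 and 193 in SP and 166, 147, 233 and 230 in NP. It was higher at E12.5 than at E11.5 in UB by 0.44 ± 0.12 (adjusted p = 0.025; 0.55 without E12.5 UB replicate 1), but not in the fit of all 36 libraries (adjusted p = 0.19), with the replicate block (adjusted p = 0.052) or without any of 5 libraries (adjusted p = 0.05 to 0.071). The differences of 0.67 in SP and 0.57 in NP did not pass (adjusted p = 0.16 and 0.077), though the SP difference did in the fit of all 36 libraries (adjusted p = 0.032) and the NP difference without E12.5 NP replicate 1 or 2 (adjusted p = 0.041 and 0.031). iNP lay below E12.5 NP by -0.83 ± 0.22 (adjusted p = 0.012).

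**Figure D3:**
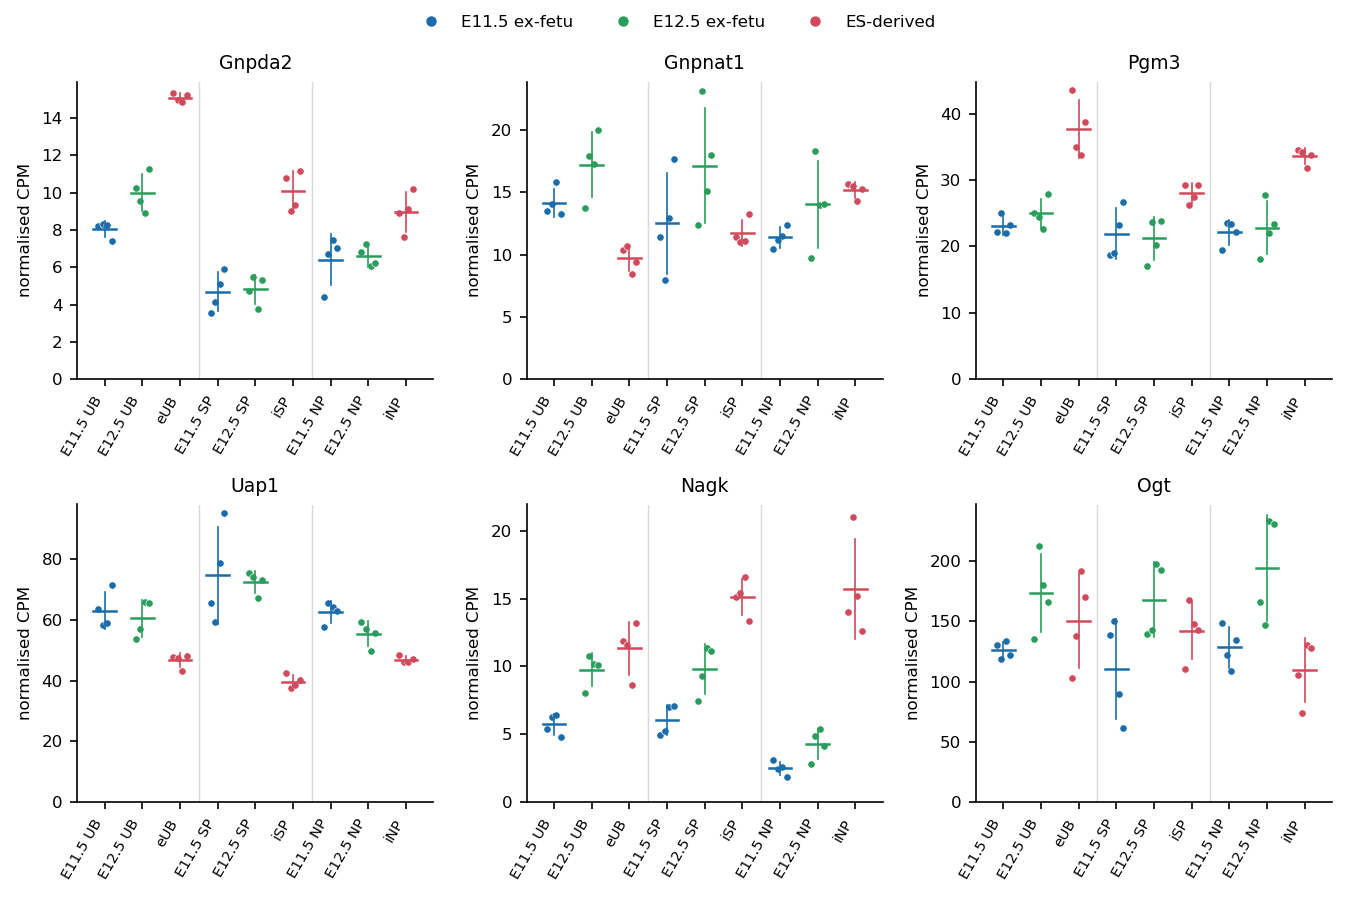
Normalised CPM of Gnpda2, Gnpnat1, Pgm3, Uap1, Nagk and Ogt in each of the 36 libraries by group; points are libraries, horizontal lines means and vertical lines ± 1 SD (n = 4). Uap1 lay at 37.5 to 48.5 in the ES-derived libraries and at 49.7 to 95.2 in the ex-fetu libraries, Nagk was lowest in E11.5 NP at 1.85 to 3.08, and the ES-derived groups of Ogt overlapped with E11.5.

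Counted over the 8 members open to a test, 7 differed between eUB and E11.5 UB, where 60.5% of all genes tested did. Gnpda2, Gfpt1, Pgm3 and Nagk were higher and Gfpt2, Gnpnat1 and Uap1 lower. In SP 5 of 8 were called beside 67.6% of all genes, and in NP 6 of 8 beside 64.7%. These shares are near the background, so the number of members called is no result about the pathway. Against E12.5, 5 of 8 were called in UB (44.4% of all genes; 5 without E12.5 UB replicate 1), 6 in SP (62.1%) and 5 in NP (44.3%), with 3 of the NP calls left by edgeR (Pgm3, Nagk and Ogt). The median log2 difference of the 8 members from E11.5 was 0.41 in UB, 0.16 in SP and 0.08 in NP, beside 0.02, 0.04 and 0.07 over all genes. The 3 comparisons against E11.5 use separate libraries, whereas each ES-derived group serves in the comparisons with both ages.

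**Figure D4:**
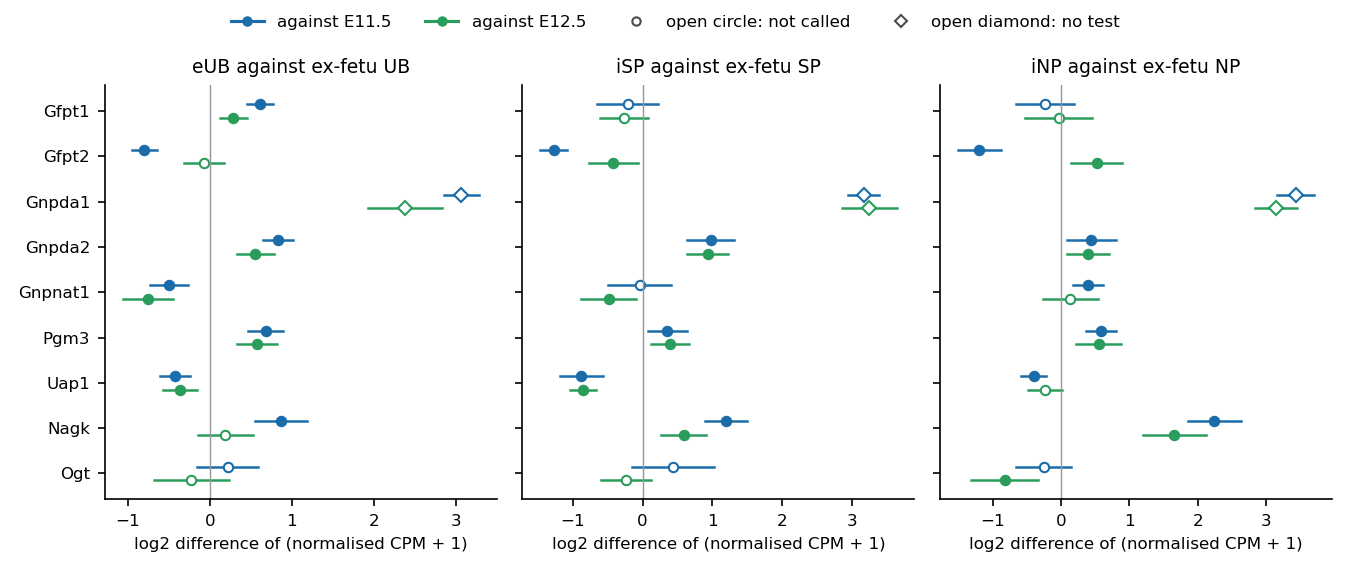
Difference of mean log2(normalised CPM + 1) between ES-derived and ex-fetu cells of the same type (x axis) for each member (y axis), against E11.5 (blue) and E12.5 (green); bars are 95% confidence intervals, filled circles were called at an adjusted p under 0.05, and the diamonds of Gnpda1 carry no test. Gnpda1 lay at 2.39 to 3.44, Nagk reached 2.25 in NP, and the other members stayed between -1.27 and 0.97.

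Markers of other cell types were not equally abundant in the 2 sources. The 4 erythroid markers listed summed to 0.00 to 0.14 in the ES-derived libraries and to between 0.52 and 365 in the ex-fetu libraries, the highest in E12.5 SP. The 5 macrophage markers summed to 35.1 to 70.9 in ex-fetu UB, 2.005 to 5.45 in eUB and 1.35 to 19.99 in the other groups. The 5 endothelial markers summed to 32.9 to 74.8 in iSP and iNP and to 6.19 to 36.1 in ex-fetu SP and NP, although CD31-positive cells were gated out of these groups. The 7 early response genes that rise on cell dissociation summed to 4219 to 6659 in eUB and 1626 to 2345 in ex-fetu UB. The part of these cells and of this response in the levels of the members was not tested.

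Between the ages, 4 of the 8 members other than Gnpda1 were called in UB, where 26.5% of all genes were, with Gfpt1, Nagk and Ogt higher and Gfpt2 lower at E12.5. In a fit of all 36 libraries 2 were called, and without E12.5 UB replicate 1 there were 5, with Gnpnat1 added. In SP and NP 1 member was called, Gfpt2 in each, beside 8.52% and 6.34% of all genes. Without E12.5 SP replicate 1 there were 2 in SP, and without E12.5 NP replicate 1 or 2 there were 3 and 2 in NP, while Gfpt2 itself was lost in SP without E11.5 SP replicate 3.

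Between cell types, 3 of these 8 members differed between UB and NP at E11.5 (60.2% of all genes), 3 between UB and SP (53.6%) and 1 between NP and SP (43.1%). In the ES-derived cells the numbers were 4 (52.2%), 5 (64.7%) and 3 (30.7%). At E12.5, over all 9 members, they were 4 (32.7%), 3 (46.4%) and 4 (34.8%), the first 2 being 4 and 2 without UB replicate 1. The E11.5 UB and NP calls fell to 1 in a fit of all 36 libraries, in which Gfpt1 and Gnpnat1 were lost, and the NP and SP calls rose to 3. The 3 calls between iNP and iSP, Gnpnat1, Pgm3 and Uap1 higher in iNP, were slight (0.24 to 0.35). None of the 3 was called in that fit (adjusted p = 0.074 to 0.14), in which Gfpt1 was called instead (-0.51, adjusted p = 0.033). Without iNP replicate 2 the Gfpt1 difference was -0.30 (adjusted p = 0.00091).

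At E12.5 the replicate numbers paired the NP and SP samples, and with the number as a block 7 of 9 members were called in place of 4, with 7961 genes in place of 4789. Gfpt1 (-0.74), Gfpt2 (-1.07), Uap1 (-0.38) and Nagk (-1.04), lower in NP, were called in both fits. With the block Gnpda2 (0.39, adjusted p = 0.021) and Ogt (0.20, adjusted p = 0.044) were also called higher in NP, and Gnpnat1 (-0.27, adjusted p = 0.041) lower. Without the block, 2 of the 4 calls, Gfpt1 and Uap1, were lost when E12.5 NP replicate 3 or E12.5 SP replicate 2 or 4 was left out.

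The size of the ES-derived against E11.5 difference was itself compared between cell types. In the test of UB against NP 3 of 8 members were called (41.8% of all genes), in UB against SP 2 (39.9%) and in NP against SP 3 (25.6%). Nagk increased more in NP than in UB (-1.38 ± 0.24 for UB minus NP, adjusted p = 2e-05) and than in SP (1.05 ± 0.24 for NP minus SP, adjusted p = 0.001). Gfpt1 differed in UB, where it rose, from NP (0.85 ± 0.26, adjusted p = 0.0081) and from SP (0.83 ± 0.26, adjusted p = 0.01). Gnpnat1 differed between UB and NP by -0.89 ± 0.25 (adjusted p = 0.0041), with opposite directions in the 2 cell types. Uap1 fell further in SP than in UB (0.45 ± 0.14 for UB minus SP, adjusted p = 0.011) and than in NP (0.47 ± 0.14 for NP minus SP, adjusted p = 0.013), although under upper-quartile scaling the first of these missed the threshold (0.36, adjusted p = 0.051). Gnpda2 increased less in NP than in SP (-0.53 ± 0.19, adjusted p = 0.034, but 0.052 without the filter and 0.064 to 0.092 without any of 8 of the 16 libraries). For Gnpda1 the values were -0.37, -0.10 and 0.27, with no test.

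The genes whose 9 group means most resembled those of Gnpda1 among 16130 genes were Gm10406 (r = 0.995), B3gntl1 (r = 0.993), Gm2237, Gm2897 and Gm3558 (r = 0.991 to 0.992). Over the 36 libraries the 5 genes were others, Lace1 and Bnip3 (both r = 0.968), Agtrap, Gpr137b and Ftl2-ps, and none was shared. All these points share the split between ES-derived and ex-fetu libraries. Bnip3, a mitophagy receptor known as a hypoxia target, lay at 142 to 231 in the ES-derived libraries and 7.97 to 70.3 in the ex-fetu libraries. Of the members, Pgm3 had the highest r with Gnpda1 over group means, 0.929, followed by Gnpda2 (0.828) and Nagk (0.827). Uap1 ran the opposite way (-0.853), Gfpt2 (-0.394) and Gnpnat1 (-0.313) did so less closely, and Gfpt1 (0.043) and Ogt (-0.160) showed little likeness.

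Gnpda1 lies on chromosome 18 (38327535 to 38339003, minus strand, GRCm38, GENCODE annotation). Of 14 genes annotated within 250 kb of its start, 8 were listed and 7 tested in at least 1 comparison with E11.5. Rnf14 (-54.5 kb) was higher in eUB by 0.22 and lower in iSP and iNP by -0.48 and -0.44. Ndfip1 (71.4 kb) was higher in iNP by 0.62 and did not pass in the other types. The lincRNA 1700086O06Rik (-88.4 kb) was higher in all 3 types, by 1.182 to 1.77, and Pcdh1 (-127 kb) was lower in eUB and iSP, by -1.88 and -1.33. Pcdh12 (-54.6 kb) was higher in iSP by 1.26 and in iNP by 1.36 and was not tested in UB. 0610009O20Rik (-88.7 kb) was higher in iSP by 0.55 and in iNP by 0.45, and the pseudogene Gm10268 (-94.2 kb) in iSP by 1.03. On the same build the other members lie elsewhere, with Gnpda2 on chromosome 5 (69573108 to 69592340, minus strand), Gfpt1 on chromosome 6 (87042846 to 87092197, plus strand), Nagk on chromosome 6 (83794982 to 83804018, plus strand), Gfpt2 on chromosome 11 (49794178 to 49838613, plus strand), Gnpnat1 on chromosome 14 (45376334 to 45404913, minus strand), Pgm3 on chromosome 9 (86554377 to 86571842, minus strand), Uap1 on chromosome 1 (170141938 to 170174957, minus strand) and Ogt on chromosome X (101640060 to 101684351, plus strand).

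Beside the 9 genes stand 3 lists of related enzymes. Of all genes tested, 4474 of 13956 were higher in eUB than in E11.5 UB, 4943 of 13916 in SP and 4995 of 14064 in NP, while 60.5%, 67.6% and 64.7% were called in either direction, and the counts of the lists are read against these. Of 11 further enzymes of hexosamine and sialic acid metabolism tested, 8 were higher and 1 lower in eUB than in E11.5 UB, 7 and 2 in SP, and 9 and 1 in NP, with median differences of 0.59, 0.38 and 0.60 beside 0.02, 0.04 and 0.07 over all genes. In eUB the ends of the list were Renbp (2.60, from a mean level of 7.99 to 53.3), which binds renin and interconverts N-acetylglucosamine and N-acetylmannosamine, Uap1l1 (2.27), a Uap1 homologue, Cmas (0.46) and Slc35a3 (-0.24), the Golgi UDP-GlcNAc transporter. In iSP they were Uap1l1 (2.82), Renbp (1.97), Eogt (-0.92) and Slc35a3 (-0.98), and in iNP Npl (2.48), Uap1l1 (2.27), Nans (0.37) and Slc35a3 (-0.79). Slc35a3 was lower in all 3 types. Between the ages 1 of the 11 was called in UB (Gne, higher at E12.5), where 26.5% of all genes were, and without E12.5 UB replicate 1 there were 4, 3 of them higher.

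The enzymes that use UDP-GlcNAc went in both directions. In eUB 7 of 18 were higher and 6 lower than in E11.5 UB, in iSP 5 and 8 of 19, and in iNP 9 and 4 of 18, with medians of -0.06, -0.21 and 0.22, so the shares called were near those of all genes. Mgat3, which adds the bisecting N-acetylglucosamine, was lower in eUB by -3.01 (32.9 to 3.23) and in iNP by -1.47. Has2, a hyaluronan synthase, rose by 2.09 in eUB (3.01 to 16.2) and fell by 2.496 in iNP (160 to 27.6). Lfng, the Fringe that modifies Notch, was lower in eUB (-1.64) and higher in iNP (1.57), and Has3 was higher in eUB (1.28). Mgat4a was lower in iSP (-1.61), Has1 went from a mean of 2.14 to 0.0303, under the value of 3 reads, in iSP, and Extl2 was higher in iSP (1.22) and iNP (1.12) with Ext2 (0.41) in iSP.

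The lysosomal enzymes that release N-acetylglucosamine, the substrate of Nagk, gave these counts. Of 7 tested, 6 were higher in eUB than in E11.5 UB, 6 in SP and 7 in NP, and none was lower, with medians of 0.63, 0.83 and 1.36 beside 0.02, 0.04 and 0.07 over all genes. Hexa was higher by 1.75 in eUB and 0.80 in iSP, Naglu by 0.61 and 1.54, and Manba by 1.79 in iNP, while Gusb had the smallest called difference in eUB (0.43) and in iNP (0.55). Against E12.5, 5, 7 and 7 of the 7 were higher, where 3226 of 13872, 4627 of 13903 and 3601 of 14067 genes were. Without E12.5 UB replicate 1 the first count was 6 with 1 lower. Macrophage markers, whose cells are rich in lysosomes, were lower in eUB than in ex-fetu UB, and their part in these levels was not tested.

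**Figure D5:**
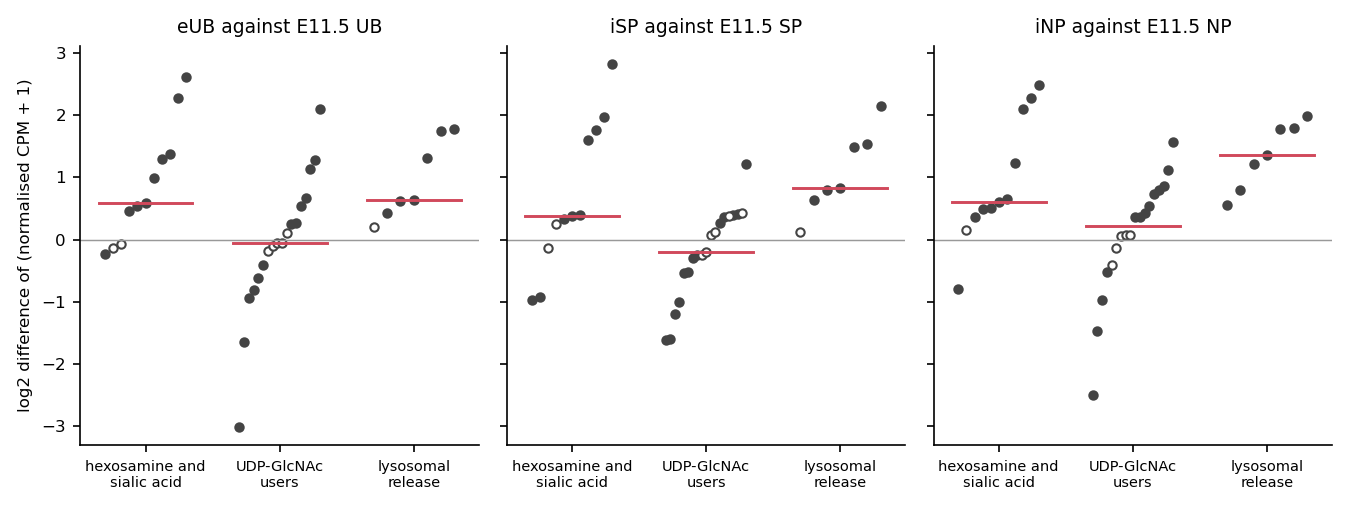
Difference of mean log2(normalised CPM + 1) between ES-derived and E11.5 cells (y axis) for the tested genes of 3 lists (x axis: further hexosamine and sialic acid enzymes, users of UDP-GlcNAc, lysosomal release of N-acetylglucosamine) in UB, SP and NP; filled points were called at an adjusted p under 0.05, and red lines are medians. The lysosomal genes lay above 0 in all 3 cell types, with medians of 0.63, 0.83 and 1.36, and the users of UDP-GlcNAc spread from -3.01 to 2.09.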

How the data were processed

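RNA was sequenced from 36 samples of sorted cells in 9 groups of 4 libraries. Cutadapt (trimming), STAR (alignment) and edgeR (normalisation) are named for the authors' processing, and the deposited values are normalised CPM, a signal scaled by library size and normalisation factors. Libraries were made with a strand-specific kit. The counting program, its strand setting and its filter are not given in the sources used here, and the build is written GRCh38 although the identifiers are mouse. The labels put samples in groups through the titles. Each value was a whole multiple of what 1 read is worth (100% of values, tolerance 0.01), which gave back the read counts and totals of 13.0 to 52.5 M reads per library. A count of 3 reads corresponded to 0.0605 to 0.223.

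Differences were fitted with limma 3.58.1 (R 4.3.3; empirical Bayes with trend) on log2(value + 1), a scale that understates the change of low genes, for genes at 1 or more in at least 4 of the 8 libraries, and p-values were adjusted by Benjamini-Hochberg over all genes tested. An adjusted p under 0.05 is a call. There were 18 comparisons of 2 groups, and 3 differences between cell types were fitted on all 36 libraries. Design and unit led to limma as the main test, and edgeR 4.0.16 on the recovered reads, other scalings, a pseudocount of 0.1, no filter, a replicate block and leaving out each library were alternatives. p-values set a difference against the spread between the litters or differentiation batches sampled, and cover no other strain or cell line. Replicate numbers were taken to pair samples where every pair of equal number correlated above 0.1 in their deviations from group means, which held between E12.5 NP and E12.5 SP (r from 0.543 to 0.700), and there the pairing comes from the data. No 2 replicates agreed within sampling noise (chi-square per degree of freedom at least 4.14). By this measure E12.5 UB replicate 1 lay at 57.9 to 67.7 from the rest of its group, which lay at 6.63 to 10.7 from each other. The values were 115 to 162 against 9.07 to 12.3 for iNP replicate 2, and 48.3 to 73.8 against 9.44 to 11.5 for eUB replicate 1. Pairs within ex-fetu SP and NP reached 209 and 208.

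The members and gene lists were chosen with earlier results of these data known. The text names every member, the 5 genes most like Gnpda1, and of each list the ends of its called genes, apart from some that are not reported here. Gm8615 was examined after its values were seen. Gnpda1 is tested, and counted among the members called, only between E12.5 cell types, because the E11.5 and ES-derived libraries chose it, although tests of it between ages and other cell types had been planned. Promoters and positions are from RefSeq and GENCODE vM21 on GRCm38 (22642 of 22761 listed genes matched), and copies were searched with BLAST 2.17.0. A limma fit of the same form was run on simulated reads modelled on eUB and E11.5 UB, and the other steps were not tested this way.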

Additional observations from a re-analysis of the deposited data

Results flagged for a closer look

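Of 81 sets of 4 libraries of a member, 3 held a library far from the rest of its group, where chance gives about 1 in 20. Gnpda2 in E11.5 UB replicate 4 was at 7.40 against 8.20 to 8.32 in the others. Gfpt1 in iNP replicate 2 was at 62.4 against 110.8 to 115.3. Uap1 in eUB replicate 3 was at 43.2 against 47.6 to 48.0.

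For 8 values the ES-derived against E11.5 difference itself differed between cell types (limma, all 36 libraries). Between UB and NP this held for Gfpt1 (0.85), Gnpnat1 (-0.89) and Nagk (-1.38). Without iNP replicate 2 the Gfpt1 value was 0.63 (adjusted p = 0.029) and the Nagk value -1.24 (adjusted p = 7.4e-05). Between UB and SP it held for Gfpt1 (0.83) and Uap1 (0.45), and between NP and SP for Gnpda2 (-0.53), Uap1 (0.47) and Nagk (1.05).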

How the results depend on the processing

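Comparisons not named here kept their count of members called within 1.5 times under every alternative run, and where a value moved the cause was not tested. In a fit of all 36 libraries the members called were 2 in place of 4 for E12.5 UB against E11.5 UB, 3 in place of 1 for SP and 2 in place of 1 for NP between the same ages (with 3141 genes in place of 1162 for SP and 1572 in place of 850 for NP), 1 in place of 3 for E11.5 UB against NP, 3 in place of 1 for E11.5 NP against SP, and 1 in place of 3 for iNP against iSP. By edgeR 3 members were called in place of 5 for iNP against E12.5 NP and 2 in place of 1 for E11.5 NP against SP, and under upper-quartile scaling 1 in place of 2 for the difference of UB minus SP. That scaling also moved the share of higher calls between the ages of UB from 53.5 to 40.3%, and the median of all genes for eUB against iNP to -0.117 on the log2 scale. Between E12.5 NP and SP, where the replicate numbers paired the samples, the replicate block gave 7 members in place of 4 and 7961 genes. Elsewhere equal numbers did not meet the correlation rule for pairing, and whether some of them share a litter or a differentiation batch was not tested. There the block called 2365 genes in place of 3648 for E12.5 UB against E11.5 UB, 3 in place of 1 members for E11.5 NP against SP and 1 in place of 3 for iNP against iSP. Over all the comparisons 5 log2 differences of members gained and 5 lost their call with the block.

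With 1 library left out, the members called ranged from 3 to 5 for iNP against E12.5 NP, from 0 to 2 for E12.5 SP against E11.5 SP, from 1 to 3 for E12.5 NP against E11.5 NP, from 1 to 2 for E11.5 NP against E11.5 SP, from 2 to 4 for E12.5 NP against E12.5 SP, from 0 to 4 for iNP against iSP. The genes called over all ranged from 2332 to 5982 for E12.5 UB against E11.5 UB, from 392 to 2889 for E12.5 SP against E11.5 SP, from 147 to 2249 for E12.5 NP against E11.5 NP, from 2924 to 4976 for E12.5 UB against E12.5 NP. The fewest for UB between the ages came without E11.5 UB replicate 1 and the most without E12.5 UB replicate 1. For SP and NP the most came without replicate 1 of the E12.5 group, and for E12.5 UB against NP the fewest came without UB replicate 4, with 2937 and 2974 without UB replicate 2 or 3.

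The uncalled differences that changed sign were, under upper-quartile scaling, Uap1 in E11.5 UB against NP (-0.025), Nagk in E12.5 UB against SP (-0.0202), and Gfpt1 (-0.0497) and Ogt (-0.0343) in eUB against iSP. Under median-ratio scaling they were Nagk in E12.5 UB against SP (-0.0214), Uap1 in eUB against iNP (0.0231) and in the difference of UB minus NP (0.00346), and by edgeR Gnpnat1 (-0.0155) and Nagk (-0.0274) in E12.5 UB against SP and Gfpt1 in the difference of NP minus SP (0.0505). The log2 differences of these members, none called, changed sign when a library was left out, with ranges of Gnpnat1 -0.222 to 0.132 in iSP against E11.5 SP, Gfpt1 -0.161 to 0.173 and Gnpnat1 -0.0153 to 0.266 in iNP against E12.5 NP, Uap1 -0.0994 to 0.00235 in E12.5 UB against E11.5 UB, Gnpda2 -0.0564 to 0.144, Gfpt1 -0.0994 to 0.206, Pgm3 -0.111 to 0.0537 and Uap1 -0.122 to 0.103 in E12.5 SP against E11.5 SP, Gnpda2 -0.0913 to 0.124 and Pgm3 -0.0639 to 0.132 in E12.5 NP against E11.5 NP, Gfpt2 -0.156 to 0.059, Uap1 -0.053 to 0.0439 and Ogt -0.0967 to 0.0527 in E11.5 UB against E11.5 NP, Nagk -0.142 to 0.00417 in E11.5 UB against E11.5 SP, Gnpnat1 -0.259 to 0.0948 and Pgm3 -0.0432 to 0.121 in E11.5 NP against E11.5 SP, Gnpnat1 -0.108 to 0.177, Nagk -0.11 to 0.0879 and Ogt -0.0569 to 0.159 in E12.5 UB against E12.5 SP, Uap1 -0.0233 to 0.026 in eUB against iNP, Ogt -0.0697 to 0.229 in eUB against iSP, Nagk -0.11 to 0.121 in iNP against iSP, Uap1 -0.0536 to 0.0434 in the difference of UB minus NP, Ogt -0.392 to 0.0311 in the difference of UB minus SP, Gfpt1 -0.169 to 0.191 and Gfpt2 -0.0607 to 0.154 in the difference of NP minus SP.

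With a pseudocount of 0.1 or by edgeR the Gnpda1 difference was larger, for instance 3.48 in SP and 3.94 in NP against E11.5 by edgeR. Of the 5 genes most like Gnpda1, none was shared between group means and libraries. Depth limits Gm8615 in the ES-derived libraries, where it rested on 1 to 10 reads.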
